A study of Homo sapiens with 12 samples.

Results

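The E2F transcription factors and the pocket proteins that bind them were examined as a set of 10 genes: E2F1, E2F2, E2F3, E2F4, E2F5, E2F7, E2F8, RB1, RBL1 and RBL2. They were taken by symbol from the 20771 genes of the deposited count table, and all 10 were present. All 10 also passed the filter on low counts, as did 16515 genes in total.

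RNA-seq had been carried out on EW8-RRM1-KO and TC71-RRM1-KO, a pair of Ewing sarcoma cell lines, in 12 libraries: 3 of each line labelled 0 h and 3 of each line labelled 48 h. In all of the libraries the endogenous RRM1 gene, which encodes the large subunit of ribonucleotide reductase, had been disrupted with CRISPR/Cas9, and the cells carried a codon-optimized RRM1 transgene whose expression required doxycycline. By the study's account, the 0 h cells were grown with doxycycline and the 48 h cells had been without it for 48 h. The comparison of 48 h with 0 h therefore asks how these genes respond when the cells lose RRM1, and removal of doxycycline and loss of RRM1 cannot be told apart in it. Each knockout line had been derived by single-cell cloning, so each line may stand for 1 clone. Nothing in the labels says that the 3 replicates of a group were separate cultures, so p-values measure only the spread between these libraries. The cells were in bulk culture, and fewer cells in a phase of the cell cycle cannot be told apart from less RNA per cell.

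Library totals ranged from 18468485 to 35698991 counts. RRM1 counts rose by 2.88 on the log2 scale in EW8 and by 0.65 in TC71, but the guide cuts the endogenous gene in every group and a codon-optimized transcript need not align to it, so this RNA does not check the labels. All 7 listed Ewing sarcoma markers were detected, with a summed level between 1002 and 1167 CPM (counts scaled to library size with the TMM factors of edgeR). Of 5 leukocyte markers 2 were in the table, with a summed level of at most 0.372 CPM. The summed level of 4 fibroblast markers went from 156 to 160 CPM at 0 h to 215 to 220 CPM at 48 h in EW8, and from 67.1 to 68.4 CPM to 93.6 to 98.2 CPM in TC71. The summed level of 3 epithelial markers went from 6.92 to 9.39 CPM to 21.4 to 23.2 CPM in EW8 and from 71.1 to 73.0 CPM to 98.4 to 111 CPM in TC71. No marker was at 0 in all libraries, and the part of these markers in the results was not tested.

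E2F proteins bind short GC-rich sites in promoters and control the genes that a cell needs to copy its DNA. E2F1, E2F2 and E2F3 are the activating members and are held by the retinoblastoma protein RB1 until cyclin-dependent kinases phosphorylate it. E2F4 and E2F5 act mainly as repressors, together with the pocket proteins RBL1 (p107) and RBL2 (p130) and, with the MuvB proteins, in the DREAM complex of resting cells. E2F7 and E2F8 are atypical repressors that bind DNA without a DP partner or a pocket protein, and are themselves E2F target genes that limit E2F1 late in S phase.

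Several of these genes carry E2F sites of their own, and the bases upstream of their start sites show this. The site was searched as 4 words, first TTCCCGC and then its relatives: the word TTCGCGC, the further word TTGCCGC and the last word TTGGCGC. All were searched on both strands of the RefSeq promoter windows (GRCh38.p14, 250 bases before to 50 bases after a start). Of the 35116 windows of all genes, 13% held at least 1 of the words, and no word contains another. Of the 10 genes, 8 had a window in the table and E2F5 and E2F8 did not. Windows that began at the annotated gene start are printed for E2F1, E2F2, E2F3, E2F7 and RBL1, which held a word, and for E2F4, which did not. Each run is the 180 bases that end just before the start, written 5′ to 3′ on the gene's strand, with every match in capitals. Where a match lies on the other strand, the capitals show its reverse complement.
E2F1 (chr20:33686386-33686565, minus strand): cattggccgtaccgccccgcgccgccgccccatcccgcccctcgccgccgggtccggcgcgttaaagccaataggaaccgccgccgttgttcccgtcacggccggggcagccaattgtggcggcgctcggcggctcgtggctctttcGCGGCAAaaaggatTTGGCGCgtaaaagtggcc
E2F2 (chr1:23531234-23531413, minus strand): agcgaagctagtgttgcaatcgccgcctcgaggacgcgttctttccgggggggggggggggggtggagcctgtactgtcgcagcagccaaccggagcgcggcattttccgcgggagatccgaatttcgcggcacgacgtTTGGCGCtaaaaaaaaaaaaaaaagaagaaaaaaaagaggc
E2F3 (chr6:20401699-20401878, plus strand): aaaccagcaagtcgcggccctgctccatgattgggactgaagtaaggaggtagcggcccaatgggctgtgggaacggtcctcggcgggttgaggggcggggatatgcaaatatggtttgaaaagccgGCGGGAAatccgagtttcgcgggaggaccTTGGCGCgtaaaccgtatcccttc
E2F7 (chr12:77065570-77065749, minus strand): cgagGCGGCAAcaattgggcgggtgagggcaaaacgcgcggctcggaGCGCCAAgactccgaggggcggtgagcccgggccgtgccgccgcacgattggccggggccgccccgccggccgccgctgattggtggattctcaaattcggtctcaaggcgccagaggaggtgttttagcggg
RBL1 (chr20:37095998-37096177, minus strand): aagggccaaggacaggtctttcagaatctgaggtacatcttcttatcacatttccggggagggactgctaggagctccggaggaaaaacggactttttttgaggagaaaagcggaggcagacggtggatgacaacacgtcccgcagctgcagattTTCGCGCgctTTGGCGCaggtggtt
E2F4 (chr16:67191975-67192154, plus strand): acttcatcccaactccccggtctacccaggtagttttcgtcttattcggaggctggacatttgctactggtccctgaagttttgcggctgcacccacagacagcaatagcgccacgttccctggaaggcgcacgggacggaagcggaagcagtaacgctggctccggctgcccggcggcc
E2F1, E2F3, E2F7 and RBL1 held 2 words each and E2F2 held 1. The E2F1 words lay at bases -33 to -27 and -19 to -13 from the start, and the RBL1 words at -25 to -19 and -15 to -9. The E2F7 words were farther out, at -176 to -170 and -133 to -127. The 2 RBL2 windows and the second E2F3 window, 1735 bases downstream of the first, held none. The only RB1 window lay 172706 bases inside the gene and is not described. A match is a description of the letters, and a window without one says nothing about binding of the factor.

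Of the activating E2Fs, E2F2 rose most in each line, and the rise of E2F1 was small in EW8. E2F3 rose in EW8, while its call in TC71, at 0.12 on the log2 scale, came with overlapping groups and was lost in 10 of 20 alternative settings. Differences were tested with the quasi-likelihood test of edgeR over all 16515 genes, and a gene was called at a Benjamini-Hochberg adjusted p below 0.05. Of the 10 genes, 8 were called in EW8 and 9 in TC71. Among all genes tested, 68.6% were called in EW8 (37.0% higher and 31.6% lower) and 42.1% in TC71 (22.9% higher and 19.2% lower), so the count in EW8 is near the background of that line. The libraries of the 0 h and 48 h groups did not overlap for 8 of the 10 genes in EW8 and for 9 in TC71, against 71.1% and 49.6% of all genes tested. With library totals alone in place of TMM, the split of all genes in EW8 moved from 6103 higher and 5226 lower to 7207 higher and 4031 lower, the split in TC71 moved from 3776 and 3179 to 4631 and 2345, and the median of all genes in EW8 moved from 0.03 to 0.16.

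E2F1, the founding activator, was the most abundant of the 10 transcripts per length in every group. The E2F1 gene lies on chromosome 20 (33675477 to 33686385, hg38) and has 7 exons. It measured 185, 198 and 190 CPM in the EW8 libraries at 0 h and 214, 205 and 210 CPM at 48 h. In TC71 it measured 141, 157 and 144 CPM at 0 h and 212, 198 and 207 CPM at 48 h. The groups did not overlap in either line, but in EW8 the gap between them was narrow. The log2 change was 0.14 ± 0.04 (SE) in EW8 (edgeR adjusted p = 0.0057) and 0.48 ± 0.04 in TC71 (edgeR adjusted p = 4.51e-11), a 1.10-fold and a 1.396-fold increase. The call in EW8 was lost without 0 h replicate 1 (0.08, edgeR adjusted p = 0.162) or without 0 h replicate 3 (0.10, edgeR adjusted p = 0.0763), and with library totals alone the change was 0.26 (edgeR adjusted p = 3.74e-06).

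E2F2, an activator with a role in proliferating blood cells among others, showed the clearest rise of the activators. Its levels in EW8 were 105, 108 and 103 CPM at 0 h and 162, 169 and 155 CPM at 48 h. In TC71 they were 96.7, 101 and 90.2 CPM at 0 h and 176, 175 and 186 CPM at 48 h. All 48 h libraries lay well above all 0 h libraries, and at 0 h the TC71 libraries lay below those of EW8. The fitted log2 change was 0.62 ± 0.05 in EW8 (edgeR adjusted p = 4.28e-14) and 0.90 ± 0.05 in TC71 (edgeR adjusted p = 1.92e-17).

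E2F3, which produces 2 protein isoforms from separate promoters that gene-level counts do not separate, changed mainly in EW8. The E2F3 levels there were 115, 106 and 111 CPM at 0 h and 144, 146 and 149 CPM at 48 h. In TC71 they were 99.1, 99.6 and 110 CPM at 0 h and 107, 117 and 111 CPM at 48 h. The EW8 groups were well apart, whereas in TC71 the highest 0 h library lay above the lowest 48 h library. On the log2 scale the change was 0.41 ± 0.05 in EW8 (edgeR adjusted p = 1.89e-09) and 0.12 ± 0.05 in TC71 (edgeR adjusted p = 0.0416), where the lost calls, in settings at the same thresholds, had an adjusted p of up to 0.204. In 7 of these settings a single library was left out, from any of the 4 groups, with values of 0.08 to 0.12.

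**Figure D1:**
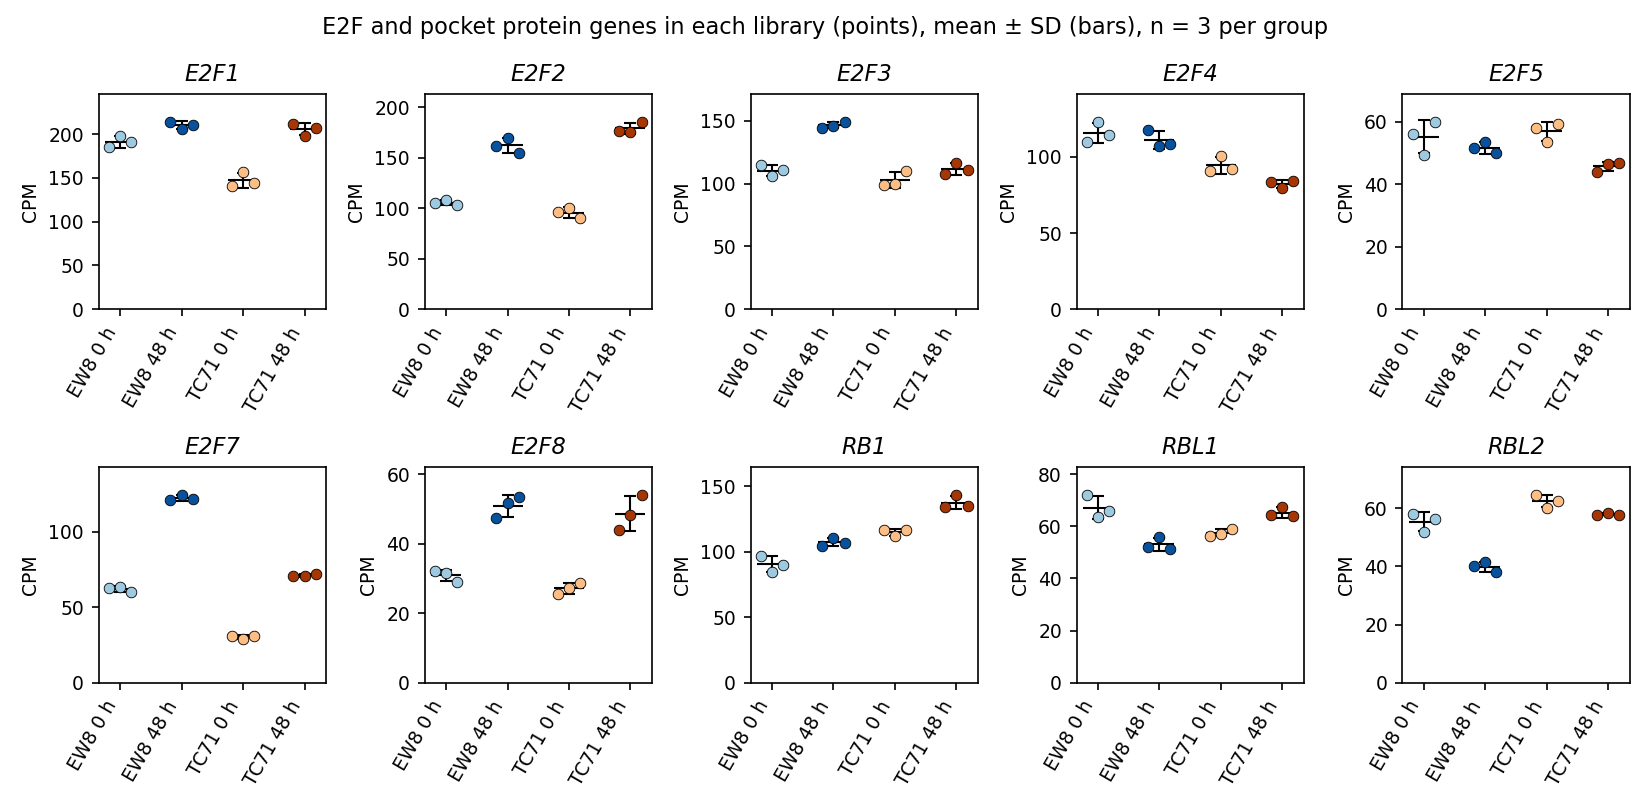
CPM of each gene (y axis, from 0) in the 4 groups (x axis), with 1 point per library and bars for the mean ± SD of 3 libraries. E2F2, E2F7 and E2F8 sit higher at 48 h than at 0 h in both lines, RBL1 and RBL2 sit lower at 48 h in EW8, and E2F4 and E2F5 sit lower at 48 h in TC71.

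The pocket-binding repressors E2F4 and E2F5 did not follow the activators: neither was called in EW8, and both fell in TC71. E2F4, the main E2F of the DREAM complex, measured 110, 123 and 114 CPM in EW8 at 0 h and 118, 107 and 109 CPM at 48 h. The TC71 levels were 90.5, 101 and 92.2 CPM at 0 h and 83.6, 79.5 and 84.1 CPM at 48 h. The EW8 groups overlapped and the TC71 groups did not. The log2 change was -0.06 in EW8 (95% confidence interval -0.16 to 0.05, edgeR adjusted p = 0.324) and -0.19 ± 0.05 in TC71 (edgeR adjusted p = 0.00229). With library totals alone the EW8 value turned to 0.07, and without EW8 0 h replicate 1 it was called at -0.13.

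E2F5, a close relative of E2F4, measured 56.1, 49.5 and 60.02 CPM in EW8 at 0 h and 51.5, 53.4 and 49.9 CPM at 48 h. In TC71 it measured 58.1, 53.5 and 59.2 CPM at 0 h and 43.98, 46.5 and 46.7 CPM at 48 h. The EW8 groups overlapped, and in TC71 each 48 h library lay below each 0 h library. On the log2 scale the change was -0.11 in EW8 (95% confidence interval -0.23 to 0.01, edgeR adjusted p = 0.113) and -0.32 ± 0.06 in TC71 (edgeR adjusted p = 3.72e-05). In EW8 it was called without 0 h replicate 2 (-0.21), with upper-quartile factors (-0.15) and with each line fitted alone (-0.13), and its sign turned with library totals alone (0.02). E2F5 shares 997 exon bases with RBIS on the opposite strand, which had 141 to 436 counts and fell in both lines (-0.55 in EW8 and -0.37 in TC71). Libraries were stranded, but whether the counting used strand is not given in the sources used here.

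The atypical repressors E2F7 and E2F8 rose in both lines, and E2F7 changed more than any other of the 10 genes in each line. E2F7 lies on chromosome 12 (77021248 to 77065569) and has 13 exons. Its levels in EW8 were 62.8, 63.7 and 59.96 CPM at 0 h and 121, 124 and 121 CPM at 48 h. In TC71 they were 31, 29.1 and 30.8 CPM at 0 h and 70.8, 70.4 and 72.3 CPM at 48 h. The libraries of a group were within a few CPM of each other and the groups were far apart, and the TC71 libraries after 48 h were above the EW8 libraries at 0 h. The fitted log2 change was 0.98 ± 0.05 in EW8 (edgeR adjusted p = 2.33e-19) and 1.23 ± 0.05 in TC71 (edgeR adjusted p = 4.21e-20), or 1.97-fold and 2.34-fold. E2F7 in TC71 was the only one of these 10 responses to pass a fold of 2, against 17.2% of all genes that did so in EW8 (13.9% higher and 3.35% lower) and 4.12% in TC71 (3.26% higher and 0.854% lower).

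E2F8, which forms homodimers and heterodimers with E2F7, was among the least abundant of the 10 genes. It measured 32.2, 31.5 and 29.1 CPM in EW8 at 0 h and 47.4, 51.8 and 53.5 CPM at 48 h. The TC71 levels were 25.6, 27.3 and 28.7 CPM at 0 h and 43.8, 48.3 and 54.0 CPM at 48 h. All 48 h libraries lay above all 0 h libraries, with more spread at 48 h. The log2 change was 0.73 ± 0.07 in EW8 (edgeR adjusted p = 5.99e-11) and 0.85 ± 0.07 in TC71 (edgeR adjusted p = 1.13e-11).

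**Figure D2:**
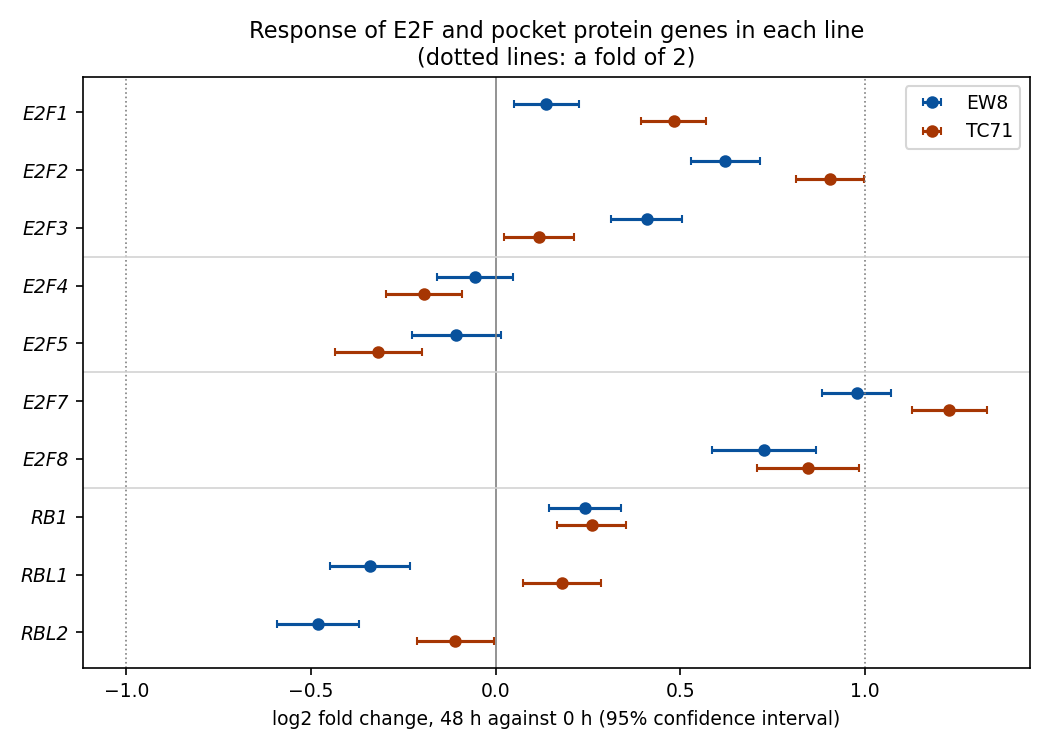
Log2 fold change of 48 h against 0 h (x axis) for the 10 genes, with points for the edgeR estimate in each line and bars for the 95% confidence interval. The dotted lines mark a fold of 2, which only E2F7 in TC71 lies beyond, and RBL1 lies on opposite sides of 0 in the lines.

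Activating and repressing E2Fs were then set against each other by level per length, in RPKM (CPM per kilobase of the canonical transcript). The summed E2F1, E2F2 and E2F3 level divided by the summed E2F4, E2F5, E2F7 and E2F8 level was 1.12, 1.12 and 1.09 in the EW8 libraries at 0 h and 1.203, 1.22 and 1.23 at 48 h. In TC71 it was 1.07, 1.12 and 1.07 at 0 h and 1.56, 1.51 and 1.48 at 48 h. The ratio was thus higher at 48 h in each line, with means of 1.11 ± 0.01 and 1.21 ± 0.01 (SD, n = 3) in EW8 and of 1.08 ± 0.03 and 1.52 ± 0.04 (SD, n = 3) in TC71. No test was run on these sums. The value depends on the length used: with all annotated exons, a setting added after the data were seen, it was 1.90 at 0 h and 1.91 at 48 h in EW8, with overlapping libraries, and 1.95 and 2.44 in TC71.

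The shares within the E2F sum show how the ratio moved. Activators made up 52.6% of the summed E2F level at 0 h and 54.8% at 48 h in EW8, and 52.0% and 60.2% in TC71. E2F4 and E2F5 went from 38.5% to 31.3% in EW8 and from 41.0% to 28.2% in TC71. The 2 atypical repressors went from 8.91% to 13.9% in EW8 and from 7.02% to 11.6% in TC71. With all annotated exons as the length, the activator share in EW8 was 65.5% at 0 h and 65.6% at 48 h, with overlapping libraries, and in TC71 it was 66.2% and 70.9%. The E2F4 and E2F5 share with these lengths went from 24.3% to 19.1% in EW8 and from 25.7% to 16.6% in TC71, and the atypical share from 10.2% to 15.3% and from 8.18% to 12.5%. In EW8 the summed level of E2F4 and E2F5 itself was 80.6 to 84.8 RPKM at 0 h and 76.8 to 82.1 RPKM at 48 h, with overlapping libraries, so its smaller share there came with taller activator and atypical sums. In TC71 that sum went from between 72.5 and 74.9 RPKM to between 61.4 and 63.6 RPKM. By level per length of the canonical transcript E2F1 was highest and E2F4 followed it in all 4 groups. E2F5 came next in both lines at 0 h (28.1 RPKM in EW8 and 28.98 RPKM in TC71), and E2F2 came next at 48 h (31.2 and 34.5 RPKM). Neighbours whose libraries overlapped were E2F2 and RB1, RBL1 and RBL2, and RBL2 and E2F7 in EW8 at 0 h, and E2F5 and E2F3, and E2F8 and E2F7, in TC71 at 48 h. With all annotated exons as the length E2F1 was still highest in all 4 groups, but the order below it changed. E2F5 then had 7.62 to 9.49 RPKM as its group means and was never above the seventh place, and E2F2 (32.8 RPKM) passed E2F4 (22.9 RPKM) in TC71 at 48 h.

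**Figure D3:**
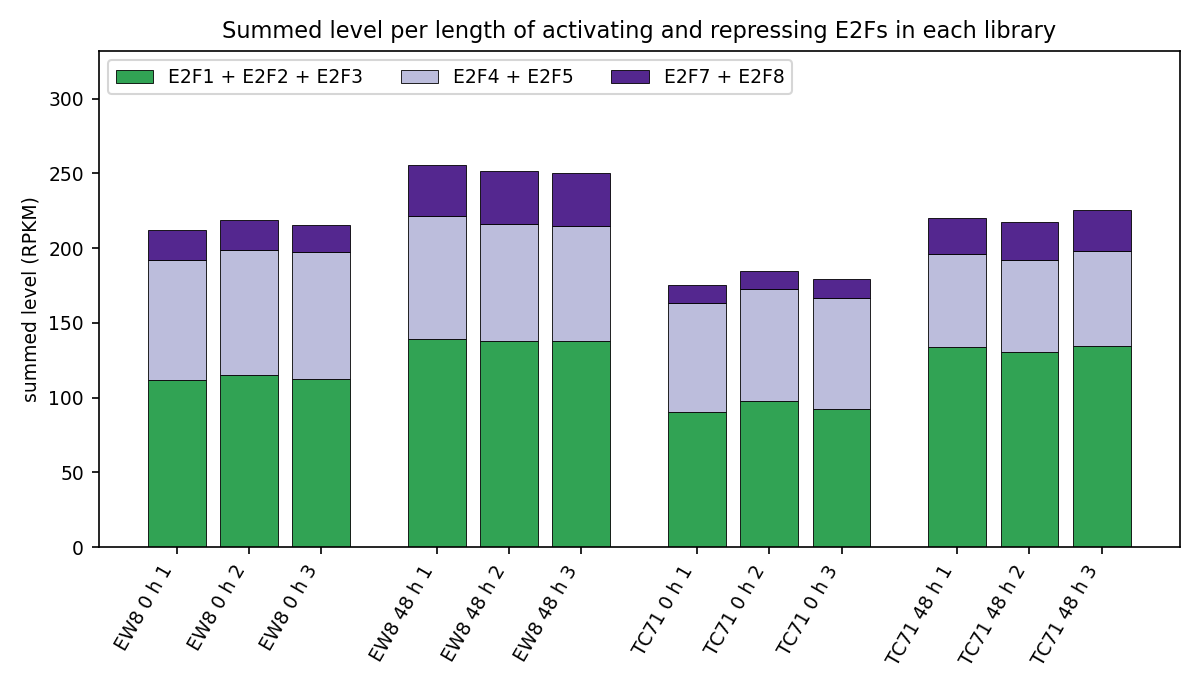
Summed level per length (y axis, RPKM of the canonical transcript, from 0) of E2F1, E2F2 and E2F3, of E2F4 and E2F5, and of E2F7 and E2F8, stacked for each of the 12 libraries (x axis). The activator and atypical bars are taller at 48 h in both lines, and the E2F4 and E2F5 bar is shorter at 48 h in TC71.

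Of the pocket proteins, RB1 rose in both lines, whereas RBL1 and RBL2 fell in EW8. In TC71, RBL1 rose and RBL2 was not called. RB1, the retinoblastoma tumor suppressor that restrains the activating E2Fs, lies on chromosome 13 (48303744 to 48599436) and has 27 exons. It measured 96.4, 84.8 and 90.1 CPM in EW8 at 0 h and 104, 111 and 106 CPM at 48 h. In TC71 it measured 116, 112 and 116 CPM at 0 h and 134, 143 and 135 CPM at 48 h. The groups did not overlap in either line, and the changes were of like size. The fitted log2 change was 0.24 ± 0.05 in EW8 (edgeR adjusted p = 3.54e-05) and 0.26 ± 0.05 in TC71 (edgeR adjusted p = 2.15e-05), and the difference between them was -0.02 (95% confidence interval -0.15 to 0.12). With library totals alone the EW8 change was 0.37.

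RBL1 encodes p107, the pocket protein whose own gene is an E2F target in cycling cells. It measured 72.0, 63.7 and 65.8 CPM in EW8 at 0 h and 52.0, 56.0 and 51.3 CPM at 48 h. The TC71 levels were 56.5, 57.0 and 59.2 CPM at 0 h and 64.3, 67.5 and 63.8 CPM at 48 h. All EW8 libraries were lower at 48 h and all TC71 libraries were higher. RBL1 fell by 0.34 on the log2 scale in EW8 (edgeR adjusted p = 8.89e-07) and rose by 0.18 in TC71 (edgeR adjusted p = 0.0052). With library totals alone the EW8 change was -0.22 (edgeR adjusted p = 4.85e-04).

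RBL2 encodes p130, which holds E2F4 in the DREAM complex of resting cells. It measured 58.2, 51.8 and 56.4 CPM in EW8 at 0 h and 40.1, 41.4 and 38.0 CPM at 48 h. In TC71 it measured 64.5, 60.3 and 62.6 CPM at 0 h and 57.7, 58.5 and 57.8 CPM at 48 h. The groups did not overlap in either line, but the gap in TC71 was small. RBL2 fell by 0.48 on the log2 scale in EW8 (edgeR adjusted p = 1.49e-09), and the change in TC71 was -0.11 (95% confidence interval -0.21 to -0.01, edgeR adjusted p = 0.0844), which was called with upper-quartile factors (-0.14, adjusted p = 0.0242). RBL2 shares 609 exon bases with AKTIP on the opposite strand, which had 211 to 487 counts and changed by -0.35 in EW8 (edgeR adjusted p = 0.00152) and 0.03 in TC71.

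The responses of the lines were compared by the difference between their log2 changes, EW8 minus TC71. Of the 10 genes, 7 were called, against 48.1% of all genes tested, with 2 higher and 5 lower (25.7% and 22.4% of all genes). None of the differences passed a fold of 2, as 8.26% of all genes did (7.28% higher and 0.981% lower). The RBL1 difference was the largest of the 10 in size at -0.52 ± 0.07 (edgeR adjusted p = 4.56e-07), and RBL1 alone was called in opposite directions in the lines. RBL2 (-0.37), E2F1 (-0.34), E2F2 (-0.28) and E2F7 (-0.25) were also lower in EW8. E2F3 was higher in EW8 by 0.29 ± 0.07 (edgeR adjusted p = 4.36e-04), so the activators did not differ between the lines in 1 direction. E2F5 was higher by 0.21 ± 0.08 (edgeR adjusted p = 0.0353), a call that was lost in 11 of 19 settings at the same thresholds (adjusted p up to 0.259), among them the replicate block (0.0663), DESeq2 (0.068) and 7 that left out a single library, from any of the 4 groups, with values of 0.11 to 0.21. For E2F4 the difference was 0.14 (95% confidence interval -0.01 to 0.28), which was called with library totals alone (0.21), and for E2F8 it was -0.12 (95% confidence interval -0.32 to 0.08).

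The lines also differed at the outset. At 0 h, 8 of the 10 genes were called between EW8 and TC71, against 65.7% of all genes tested, with 6 higher and 2 lower in EW8 (32.8% and 32.9% of all genes). The same number, 8, had libraries that did not overlap between the lines, against 68.3% of all genes. The E2F7 level in EW8 was 2.04-fold that in TC71, a log2 difference of 1.03 ± 0.05 (edgeR adjusted p = 8.65e-19), and it was the only one of the 10 past a fold of 2, which 16.7% of all genes passed (4.77% higher and 11.9% lower). E2F1 (0.38), E2F4 (0.29), RBL1 (0.22), E2F8 (0.18) and E2F2 (0.14) were higher in EW8. RB1 (-0.34) and RBL2 (-0.17) were lower in EW8. With library totals alone, E2F2 (0.01), E2F8 (0.05) and RBL1 (0.09, and 0.14 but called with upper-quartile factors) were no longer called, E2F5 was called as lower in EW8 (-0.17), E2F1 (0.24), E2F4 (0.16) and RBL2 (-0.30) kept their calls, and the split of all genes moved from 5415 higher and 5439 lower to 3910 and 6940. With the replicate number as a block within each line, the fit compared the lines at replicate 1, not by their means at 0 h. In that different comparison E2F2 (edgeR adjusted p = 0.133) and RBL2 (edgeR adjusted p = 0.159) were not called, and E2F8 was at 0.28. The E2F8 call was also lost without EW8 0 h replicate 1 or 2 or TC71 0 h replicate 1 or 2 (0.14 to 0.18), with at least 10 counts in every library (0.16) and with upper-quartile factors (0.10, adjusted p = 0.219). The E2F2 call was lost without TC71 0 h replicate 3 (0.10) and with upper-quartile factors (0.06, adjusted p = 0.244). E2F3, at 0.10 (edgeR adjusted p = 0.0579), was called without EW8 0 h replicate 2 (0.14), TC71 0 h replicate 3 (0.15) or TC71 48 h replicate 1 (0.10), with DESeq2 size factors (0.11) and with no filter (0.11).

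**Figure D4:**
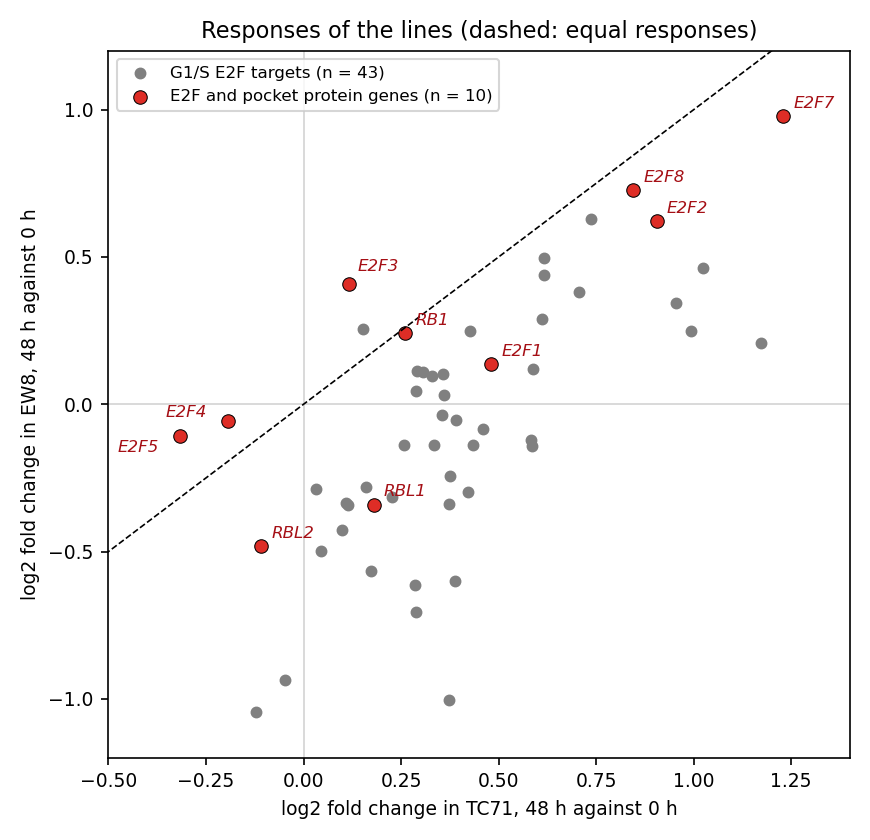
Log2 fold change in EW8 (y axis) against that in TC71 (x axis) for the 10 genes (red, named) and 43 genes of the G1/S target list (grey), with a dashed line for equal responses. E2F3, E2F4 and E2F5 lie above the line, E2F1, E2F2, E2F7, RBL1 and RBL2 lie below it, and most targets lie below it.

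Genes of the proteins that work with the E2Fs also differed by line. TFDP1, the main DP subunit with which E2F1 to E2F6 bind DNA, fell by 0.46 on the log2 scale in EW8 (edgeR adjusted p = 1.29e-12) and rose by 0.22 in TC71 (edgeR adjusted p = 1.77e-05), a difference of -0.67 ± 0.05. The TFDP1 mean went from 226 ± 5.49 to 165 ± 2.27 CPM in EW8 and from 231 ± 6.33 to 268 ± 2.18 CPM in TC71 (SD, n = 3). TFDP2, another DP subunit, rose by 0.43 in EW8 and changed by -0.07 in TC71 (edgeR adjusted p = 0.288). TFDP3, a DP protein known to inhibit E2F binding, rose by 1.32 in EW8 and by 0.39 in TC71 from low levels (2.13 and 5.29 CPM at 0 h), and its TC71 call was lost without 0 h replicate 3 (0.32) or 48 h replicate 3 (0.30). E2F6, a repressor that binds no pocket protein, was called in neither line (-0.07 and -0.02), but was called in EW8 without 0 h replicate 2 (-0.15). The median of these 4 genes was 0.18 in EW8 and 0.10 in TC71, against 0.03 and -0.00 over all genes tested.

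The MuvB core joins E2F4 and RBL2 in the DREAM complex and later joins MYBL2 and FOXM1 to switch on mitotic genes. Among the 8 genes of the core and its partners MYBL1, MYBL2 and FOXM1, EW8 had 4 that rose and 2 that fell, and TC71 had 4 that rose (median 0.24 in each line). Of the core genes themselves, LIN54 and LIN37 rose in EW8 and only LIN54 rose in TC71. With both directions pooled, the called shares are near those of all genes tested, 68.6% in EW8 and 42.1% in TC71. By direction, 37.0% of all genes were higher and 31.6% lower in EW8, and 22.9% and 19.2% in TC71. None of the 8 fell in TC71 with edgeR at an adjusted or unadjusted p below 0.05 or with DESeq2. MYBL1 rose by 1.10 in EW8 and 1.09 in TC71, and MYBL2, itself an E2F target, by 0.43 and 0.51. LIN54, the DNA-binding MuvB subunit, rose by 0.61 and 0.36. RBBP4, a histone-binding subunit that other chromatin complexes share, fell by 0.56 in EW8, and its TC71 change was 0.01 (edgeR adjusted p = 0.844). LIN9 fell by 0.27 in EW8 (-0.15 with library totals alone), with a TC71 change of -0.01 (edgeR adjusted p = 0.951). FOXM1 rose by 0.37 in TC71 and changed by 0.00 in EW8, and this difference of -0.37 was called (edgeR adjusted p = 1.22e-05). LIN52 was called in neither line (0.05 and -0.05). LIN37 rose in EW8 (0.85) from 10 to 29 counts per library at 0 h, a call that was lost without EW8 0 h replicate 1 (0.57) or 48 h replicate 3 (0.69). With library totals alone, FOXM1 (0.13) and LIN52 (0.17) were called as higher in EW8.

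Cyclins and cyclin-dependent kinases phosphorylate the pocket proteins, and the CDKN proteins inhibit those kinases. Of 17 genes in this list 15 were tested, since CDKN1C was not among the genes analysed and CDKN2A was below the filter with 2 to 14 counts per library. In EW8, 10 rose and 2 fell, with a median of 0.34, against 37.0% and 31.6% of all genes tested, and the number that fell was 4 with upper-quartile factors or without EW8 0 h replicate 1. In TC71, 10 rose and 0 fell, with a median of 0.43, against 22.9% and 19.2% of all genes tested, and the count that fell was also 0 with edgeR at an unadjusted p below 0.05 and with DESeq2. CDKN1A, the p53 target that encodes p21, rose by 3.40 in EW8 and 2.05 in TC71, and CDKN2D, an inhibitor of CDK4 and CDK6, by 1.71 and 0.90. Cyclin E genes rose more in TC71, CCNE2 by 1.17 and CCNE1 by 0.96, than in EW8, by 0.21 and 0.34. In EW8 the CCNE2 call was lost without 0 h replicate 1 (0.15) or 3 (0.16), and the CCNE2 value with library totals alone was 0.33. CCNA2, the S-phase cyclin, and CDK2, its partner, fell in EW8 by 0.43 and 0.25 (CDK2 -0.12 with library totals alone), whereas in TC71 CDK2 rose by 0.38 and CCNA2 changed by 0.10 (edgeR adjusted p = 0.052), which was called in 7 of 20 settings at the same thresholds, among them those without EW8 0 h replicate 2, EW8 48 h replicate 2 or TC71 48 h replicate 1 (0.10 to 0.12). CDK6 rose by 1.58 in EW8, where it had 126 to 445 counts per library, and had 0 to 3 counts per library in TC71.

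Genes that E2Fs are known to activate for DNA replication differed between the lines in 1 direction. Like all the lists, this one was chosen with earlier results of these data known, so its counts are a description. Of the 43 G1/S targets tested (UHRF1, also listed, was not analysed here), 16 rose and 22 fell in EW8, against 37.0% and 31.6% of all genes tested, with a median log2 change of -0.12, and without EW8 0 h replicate 1 or replicate 3 the number that rose was 10. In TC71, 37 rose and 1 fell, against 22.9% and 19.2% of all genes tested, with a median of 0.36. The difference of responses was called as lower in EW8 for 40 of the 43 and as higher for 0 (also 0 with edgeR at an unadjusted p below 0.05 and with DESeq2, and 1 with library totals alone), with a median of -0.47, against 22.4% lower among all genes tested and a median of 0.04. BRCA1 (0.63), POLA2 (0.50) and CDT1 (0.46) rose most in EW8, and MSH6 (-1.04), PCNA (-1.003) and MCM6 (-0.94) fell most. PCNA, the sliding clamp of the replication fork, went from 482 ± 16.8 to 240 ± 8.78 CPM in EW8 and from 365 ± 3.71 to 472 ± 9.12 CPM in TC71 (SD, n = 3). In TC71 the largest increases were those of CCNE2 (1.17), the licensing factor CDT1 (1.02) and RRM2 (0.99), the small subunit of ribonucleotide reductase, and MSH6 was the one that fell (-0.12), a call that was lost without TC71 0 h replicate 1 (-0.11), with library totals alone (-0.07) and with the replicate block (-0.12). Of the 56 RefSeq windows of this list 36 held 1 or more of the E2F words printed above (64.3%), against 13% of all windows.

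**Figure D5:**
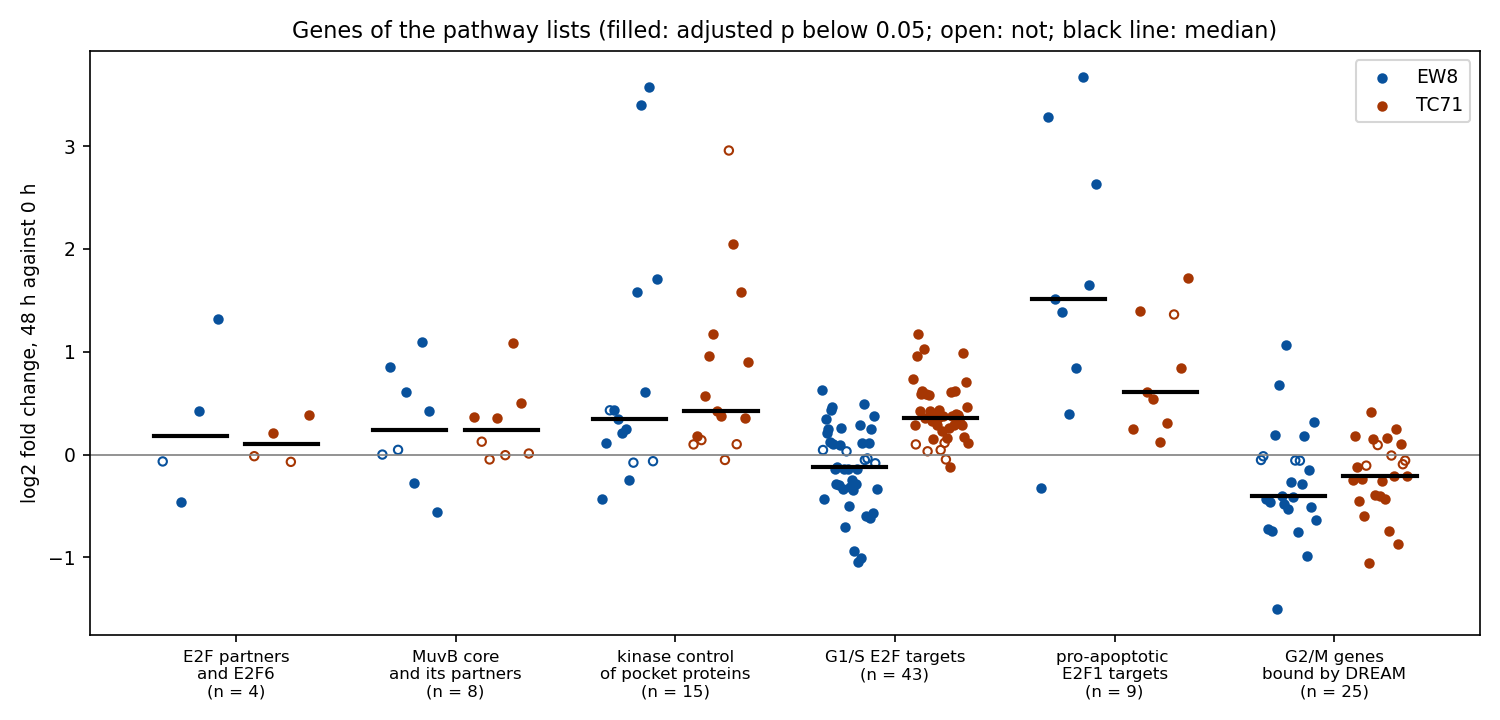
Log2 fold change of 48 h against 0 h (y axis) for each tested gene of 6 lists (x axis) in EW8 and TC71, with filled points for an adjusted p below 0.05 and a black line for the median. The G1/S targets have a median of -0.12 in EW8 and 0.36 in TC71, and the pro-apoptotic targets have medians of 1.52 and 0.61.

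E2F1 can also activate genes of cell death, and 8 of 9 such genes rose in each line, against 37.0% of all genes tested in EW8 and 22.9% in TC71. Their medians were 1.52 and 0.61, and the response was higher in EW8 for 7 and lower for 1, against 25.7% and 22.4% of all genes. PMAIP1 (NOXA) rose by 1.65 in EW8 and 0.85 in TC71, BCL2L11 (BIM) by 1.52 and 0.61, and TP73 by 2.63 and 1.72. TP73 averaged fewer than 20 counts per library in EW8 at 0 h. APAF1, which builds the apoptosome, fell by 0.33 in EW8 (-0.20 with library totals alone) and rose by 0.25 in TC71. Several of these genes are also p53 targets, and the list does not separate the factors. E2F words were found in 1 of their 11 windows (9.09%), against 13% of all windows. The AP-1 site TGANTCA was in 3 of the 11, against 7.71% of all windows. It was in 1 of 56 G1/S windows and in 0 windows of the partner, MuvB, kinase and G2/M lists. The part of either site in these responses was not tested.

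Genes of mitosis that DREAM represses in resting cells mostly fell in both lines. Of 25 tested, 5 rose and 16 fell in EW8, with a median of -0.41, against 37.0% and 31.6% of all genes tested. In TC71, 6 rose and 14 fell, with a median of -0.21, against 22.9% and 19.2% of all genes tested. CDC20, the activator of the anaphase-promoting complex, fell by 1.499 and 1.06, and PLK1, a mitotic kinase, by 0.98 and 0.87. CENPE, a kinetochore motor, rose by 1.07 in EW8 and was not called in TC71 (0.09, edgeR adjusted p = 0.159), where it was called without 48 h replicate 1 (0.15) and with library totals alone (0.14). CDC25C rose by 0.68 and 0.42, and NUSAP1 by 0.18 (0.30 with library totals alone) and 0.25. The CHR word TTTGAA, the site that MuvB binds, was present in 19 of the 27 windows of these genes (70.4%), against 15.2% of all windows.

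Among all genes tested, the gene whose log2 CPM followed each member most closely over the 12 libraries was found by Pearson correlation, as a description, and is given for the members other than E2F3. The libraries share only 4 groups, so a high value mostly says that the group means run alike. E2F1 was closest to CHAF1A (r = 0.977), a subunit of the chromatin assembly factor at replication forks, E2F2 to RFC2 (0.982) and RBL1 to RFC4 (0.971), both subunits of the clamp loader, and E2F8 to the mitotic kinase gene MASTL (0.977). E2F7 was closest to SPRY4 (0.993), a feedback inhibitor of receptor tyrosine kinase signalling, and E2F5 to CKS2 (0.931). E2F4 was closest to SF1 (0.978), RB1 to AC012307.1 (0.991) and RBL2 to ATPAF1 (0.994). In no case was the closest gene another of the 10.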

How the data were processed

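The data were 12 RNA-seq libraries, 3 in each of 4 groups made by cell line and time. Per the labels, polyA RNA was prepared with the TruSeq Stranded mRNA protocol, and FastQC and STAR with hg38 are named in the submitters' processing notes. The study gives paired-end reads of 100 bp. The authors deposited raw counts per gene, not normalized. The counting program, its annotation and its strand setting are not given in the sources used here. Of 20771 gene identifiers, 19943 matched GENCODE 44, which gave coordinates and transcript lengths.

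Low counts were filtered with filterByExpr, using the 4 groups, 10 as the minimum count and 15 as the minimum total. Counts were scaled with TMM factors and fitted with the robust quasi-likelihood model of edgeR 4.0.16 in R 4.3.3, with 1 mean per group and all 12 libraries in 1 fit, and p-values were Benjamini-Hochberg adjusted over the 16515 genes tested. For each line 48 h was compared with 0 h, then these changes were compared between the lines, as were the levels at 0 h. The common biological coefficient of variation was 4.17%. Library totals of 18468485 to 35698991 set the precision of low counts. Replicate pairs differed by 2.05 to 9.48 chi-square units per gene, so no library was a duplicate. RPKM used the canonical transcript. The members and gene lists were chosen with earlier results of these data known. Named genes were the 10 members, RRM1, the DP, E2F6 and MuvB genes, and up to 3 (kinase and G1/S lists) or up to 2 (the other lists) genes per line and direction with the largest called change and at least 20 counts in the lower group, plus 1 most correlated gene per member. The last of these is not reported here for E2F3. RBIS and AKTIP were named for their overlaps, after their values were seen. Of simulated EW8 changes of 1 on the log2 scale, 36 of 40 increases and 32 of 40 decreases were recovered. At a change of 0.5 it was 30 of 40 increases and 29 of 40 decreases, and 7 of 16155 unchanged genes were called. The simulation changed few genes, whereas 68.6% were called in EW8, so it does not measure false calls in these data. Alternatives were other scalings, DESeq2 1.42.0, other filters, a replicate block, each line alone, stricter thresholds and each library left out. Plots used matplotlib 3.10.9 under Python 3.11.15.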

Additional observations from a re-analysis of the deposited data

Results flagged for a closer look

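The response to removal of doxycycline differed between EW8 and TC71 for 7 of the 10 genes, by the interaction term of the edgeR fit, against 48.1% of all genes tested. As EW8 minus TC71 on the log2 scale, the difference was -0.34 for E2F1, -0.28 for E2F2, 0.29 for E2F3, 0.21 for E2F5, -0.25 for E2F7, -0.52 for RBL1 and -0.37 for RBL2. For RBL1 the changes had opposite signs in the lines, and each was called. For E2F3 and E2F5 the sign of the difference was opposite to that of the other 5. The E2F5 difference was the one of the 7 whose call was lost under other settings that keep the thresholds. Groups held 3 libraries each, too few to look for single outlying libraries.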

How the results depend on the processing

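No result changed sign while called in either setting. Of the 10 genes, E2F2, E2F7, E2F8, RB1 and RBL1 kept their calls in both lines in all 20 settings that used the same thresholds. The number of members whose response was higher in EW8 was 1 instead of 2 with DESeq2, with no filter, with at least 10 counts in every library, with the replicate block and at an adjusted p below 0.01, and 3 with library totals alone. It ranged from 1 to 2 when single libraries were left out, while the number that was lower stayed at 5. At 0 h, 3 instead of 6 members were higher in EW8 with library totals alone and 4 with upper-quartile factors. With the replicate block 1 instead of 2 was lower, but that fit compared the lines at replicate 1, not by their means. The labels do not say whether the replicate numbers pair the samples. The deviations of same-numbered libraries correlated between -0.14 and -0.01, and no library was closest to its own number. Those of libraries with other numbers correlated between -0.02 and 0.10, and correlations this small cannot decide whether samples were paired. The block lowered the number of genes called in EW8 to 5875 higher and 4968 lower, and in TC71 to 3322 and 2645.

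Among the lists, the G1/S targets that fell in TC71 numbered 0 with library totals alone, with the replicate block and at an adjusted p below 0.01, and 0 to 1 when single libraries were left out. The G1/S targets whose response was higher in EW8 numbered 1 with library totals alone. The kinase genes that fell in EW8 numbered 4 with upper-quartile factors and 2 to 4 when single libraries were left out. The G1/S targets that rose in EW8 numbered 10 to 16 when single libraries were left out. Of the E2F partners, 1 rose in TC71 at an adjusted p below 0.01 and 1 to 2 when single libraries were left out, and 1 to 2 fell in EW8.

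When a fold above 2 was also required, 0 members rose and 0 fell in EW8, 1 rose and 0 fell in TC71, 0 differed in response in either direction, and 1 was higher and 0 lower at 0 h. With that threshold the counts that rose and fell in EW8 were 1 and 0 for the partners, 1 and 0 for MuvB, 4 and 0 for the kinase list, 0 and 2 for the G1/S targets, 1 and 1 for the G2/M genes, and 6 and 0 for the pro-apoptotic genes. In TC71 they were 0 rising for the partners, 1 for MuvB, 3 for the kinase list and 2 for the pro-apoptotic genes, 2 and 0 for the G1/S targets and 0 and 1 for the G2/M genes. With that threshold the response was higher in EW8 for 2 and lower for 0 genes of the kinase list. It was lower for 1 and higher for 0 G1/S targets, and higher for 1 and lower for 0 pro-apoptotic genes. For the partners, MuvB and G2/M lists it was 0 in each direction. With all annotated exons as the length, the ratio of activating to repressing E2Fs was 1.90 and 1.91 in EW8 and 1.95 and 2.44 in TC71. The cause of these shifts was not tested.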

Other observations

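EMSLR, a long noncoding RNA whose name stands for an E2F1 mRNA stabilizing RNA, was looked up after its values were seen. It fell by 0.75 on the log2 scale in EW8 (edgeR adjusted p = 1.05e-06) and by 0.37 in TC71 (edgeR adjusted p = 0.0106), and the difference between the lines was -0.39 (edgeR adjusted p = 0.0561). Its counts were 131 to 289 per library in EW8 at 0 h and 98 to 109 at 48 h, and 138 to 183 and 123 to 160 in TC71. In CPM the groups did not overlap in either line.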
